A study of Mus musculus with 11 samples.

Results

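Chromatin accessibility was examined at 67 of 38509 ATAC-seq peaks, those whose centre lay nearest to a RefSeq start site of 9 genes of IL-2 and IL-7 signalling. The genes were the receptor chains Il2ra, Il2rb, Il2rg and Il7r, the kinase Jak3, the transcription factors Stat5a and Stat5b, and the STAT5 targets Cish and Socs2. Il2ra had 13 peaks, Il2rb 5, Il2rg 1, Il7r 12, Jak3 1, Stat5a 6, Stat5b 19, Cish 8 and Socs2 2, and all 67 passed the filter on low values. A peak was given to a gene by distance alone, so it can belong to the regulation of a neighbour: 3 of the Stat5a peaks lay in introns of Stat3 and 3 of the Il7r peaks in introns of Spef2. ATAC-seq uses a transposase to cut and tag open DNA, and the signal of a peak is the number of tagged reads in it, scaled per library by the authors.

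The 11 libraries came from CD4 T cells sorted without treatment from mixed spleen and lymph node of wildtype C57BL/6 mice that carried Foxp3-GFP and a polyclonal T cell repertoire. Naive cells (n = 2) were CD44low. Teff cells (n = 3) were CD44high, FOXP3 negative, CD73low and FR4low, and anergic cells (n = 3), a state in which T cells no longer respond to antigen, were CD44high, FOXP3 negative, CD73high, FR4high and NRP1 positive. Treg cells (n = 3), which restrain immune responses, were FOXP3 and CD25 positive, with no CD44 gate stated. CD25 is the protein of Il2ra, so the Il2ra values of Treg cells are not independent of the sort. The labels give no age, and they leave unsaid whether each replicate came from its own animal. The p-values therefore measure only the spread among these libraries, which may be technical.

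IL-2 binds a receptor of up to 3 chains. CD25, from Il2ra, raises its affinity, while CD122, from Il2rb, and the common gamma chain, from Il2rg, carry the signal. IL-7 binds CD127, from Il7r, with the same gamma chain, and sustains resting T cells. JAK3 sits on the gamma chain and helps to phosphorylate STAT5A and STAT5B, which then enter the nucleus and bind DNA. CIS, from Cish, and SOCS2 are induced by STAT5 and dampen cytokine signalling. Treg cells are known for high CD25 and low CD127, and naive T cells for high CD127.

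Reads in peaks ranged from 14.7 M (Treg 2) to 68.8 M (anergic 2) per library, and 1 read was worth 0.527 to 2.13 units of signal. All 5 CD4 T cell markers sought had peaks (40). Their sums were 21921 to 22502 in naive, 21363 to 22625 in Teff, 21685 to 22735 in anergic and 16679.8 to 17416 in Treg libraries. The Foxp3 peak averaged 1331 in Treg, 131 in anergic, 31.1 in Teff and 11.6 in naive cells. All 3 Treg markers sought had peaks (29). Of these, 13 were lower and 4 higher in anergic than in Treg cells (limma adjusted p under 0.05, 58.6% beside 34.1% of all peaks). The sums of the Treg markers were 14766 to 16286 in Treg, 8255 to 8852 in anergic, 4324 to 4698 in Teff and 1644 to 1780.0 in naive libraries. An Ikzf2 peak was higher in anergic (1494) than in Treg cells (1037). Of 5 B cell markers only Cd79b had peaks (4), and their summed signal was 289 to 353 in anergic, 313 to 413 in Teff, 391 to 407 in Treg and 545 to 607 in naive libraries. Cd8b1, 1 of 2 CD8 genes sought and the only such gene with a peak, averaged 1133 in naive, 696 in Treg, 199 in Teff and 197 in anergic cells. Of 5 myeloid and dendritic markers Itgam and Itgax had peaks (4), with sums of 1200.1 to 1648 in Teff, 592 to 985 in anergic, 654 to 768 in naive and 408 to 543 in Treg libraries. These 2 markers differed in order. The Itgam peak averaged 176 in naive, 43.8 in Teff, 33.8 in Treg and 24.6 in anergic cells. The Itgax peak with the smallest F-test p averaged 1221 in Teff, 667 in anergic, 389 in naive and 340.2 in Treg cells. Of 3 erythroid markers only Klf1 had a peak, which averaged 2739 in naive, 2253 in Teff, 2007 in anergic and 1759.7 in Treg cells. In bulk libraries, more cells with an open site and more opening per cell cannot be told apart.

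Sequences are shown for the distal peaks of Il2ra, Il2rb and Il7r that the results turn on and for the start-site peak of Cish. All are read from the plus strand of GRCm38 (mm10), 5′ to 3′. Capitals mark the STAT5 pattern TTCNNNGAA, except in the Il7r peak, where they mark the RUNX pattern TGTGGT, a core site of a factor family active in T cells. The stretches of Il2ra 6.67 kb upstream and of Il2rb are the last 300 bases of their peaks, which hold the match, and those of Il2ra 8.89 kb downstream and of Il7r are the central 300 bases. The Cish stretches lie at the start of its first exon.
Il2ra, 6.67 kb upstream, chr2:11636052-11636351: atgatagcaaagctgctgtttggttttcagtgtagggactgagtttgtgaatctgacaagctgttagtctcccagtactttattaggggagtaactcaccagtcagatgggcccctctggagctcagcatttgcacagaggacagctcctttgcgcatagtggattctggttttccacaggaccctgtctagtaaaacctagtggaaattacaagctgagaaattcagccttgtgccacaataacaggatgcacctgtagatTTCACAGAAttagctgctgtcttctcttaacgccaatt
Il2ra, 8.89 kb downstream, chr2:11651534-11651833: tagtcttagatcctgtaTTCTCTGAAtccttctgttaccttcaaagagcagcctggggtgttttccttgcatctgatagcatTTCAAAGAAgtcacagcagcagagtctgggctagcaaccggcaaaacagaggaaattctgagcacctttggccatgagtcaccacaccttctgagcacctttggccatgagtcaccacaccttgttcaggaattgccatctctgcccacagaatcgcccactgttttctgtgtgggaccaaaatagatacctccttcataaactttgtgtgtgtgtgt
Il2rb, 7.72 kb upstream, chr15:78502747-78503046: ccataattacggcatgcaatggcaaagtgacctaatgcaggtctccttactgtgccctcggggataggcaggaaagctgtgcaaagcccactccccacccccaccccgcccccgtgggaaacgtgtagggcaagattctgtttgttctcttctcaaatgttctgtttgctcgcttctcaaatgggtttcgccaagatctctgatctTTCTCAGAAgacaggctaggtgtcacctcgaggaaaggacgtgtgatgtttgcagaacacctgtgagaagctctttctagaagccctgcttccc
Il7r, 45.2 kb upstream, chr15:9574945-9575244: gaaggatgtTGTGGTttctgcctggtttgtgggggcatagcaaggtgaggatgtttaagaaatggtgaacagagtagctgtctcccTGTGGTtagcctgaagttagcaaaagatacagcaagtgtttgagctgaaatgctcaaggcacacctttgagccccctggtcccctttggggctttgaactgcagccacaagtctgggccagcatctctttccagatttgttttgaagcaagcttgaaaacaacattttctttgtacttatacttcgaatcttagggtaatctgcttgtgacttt
Cish, start-site peak, chr9:107296657-107296686: ttTTCCTGGAAagTTCTTGGAAatctgtca
Cish, start-site peak, chr9:107296762-107296791: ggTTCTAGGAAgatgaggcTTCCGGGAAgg

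Of the 67 peaks, 59 (88.1%) differed among the 4 groups by limma's F test (adjusted p under 0.05), beside 66% of all 38493 peaks tested. Among distal peaks, over 1000 bases from every start site, it was 49 of 52 (94.2%, against 73.1% of all distal peaks), and among promoter peaks 10 of 15 (66.7%, against 51.7%). The group mean was highest in Treg cells at 31 of the 67 peaks and lowest in anergic cells at 31, while over all peaks Treg cells were highest at 17.8% and anergic cells lowest at 26.3%. Naive cells were highest at 20 peaks and lowest at 25, and anergic cells were highest at 3. Over all peaks naive cells were highest at 36.6% and lowest at 32.9%, and anergic cells highest at 26.9%.

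**Figure D1:**
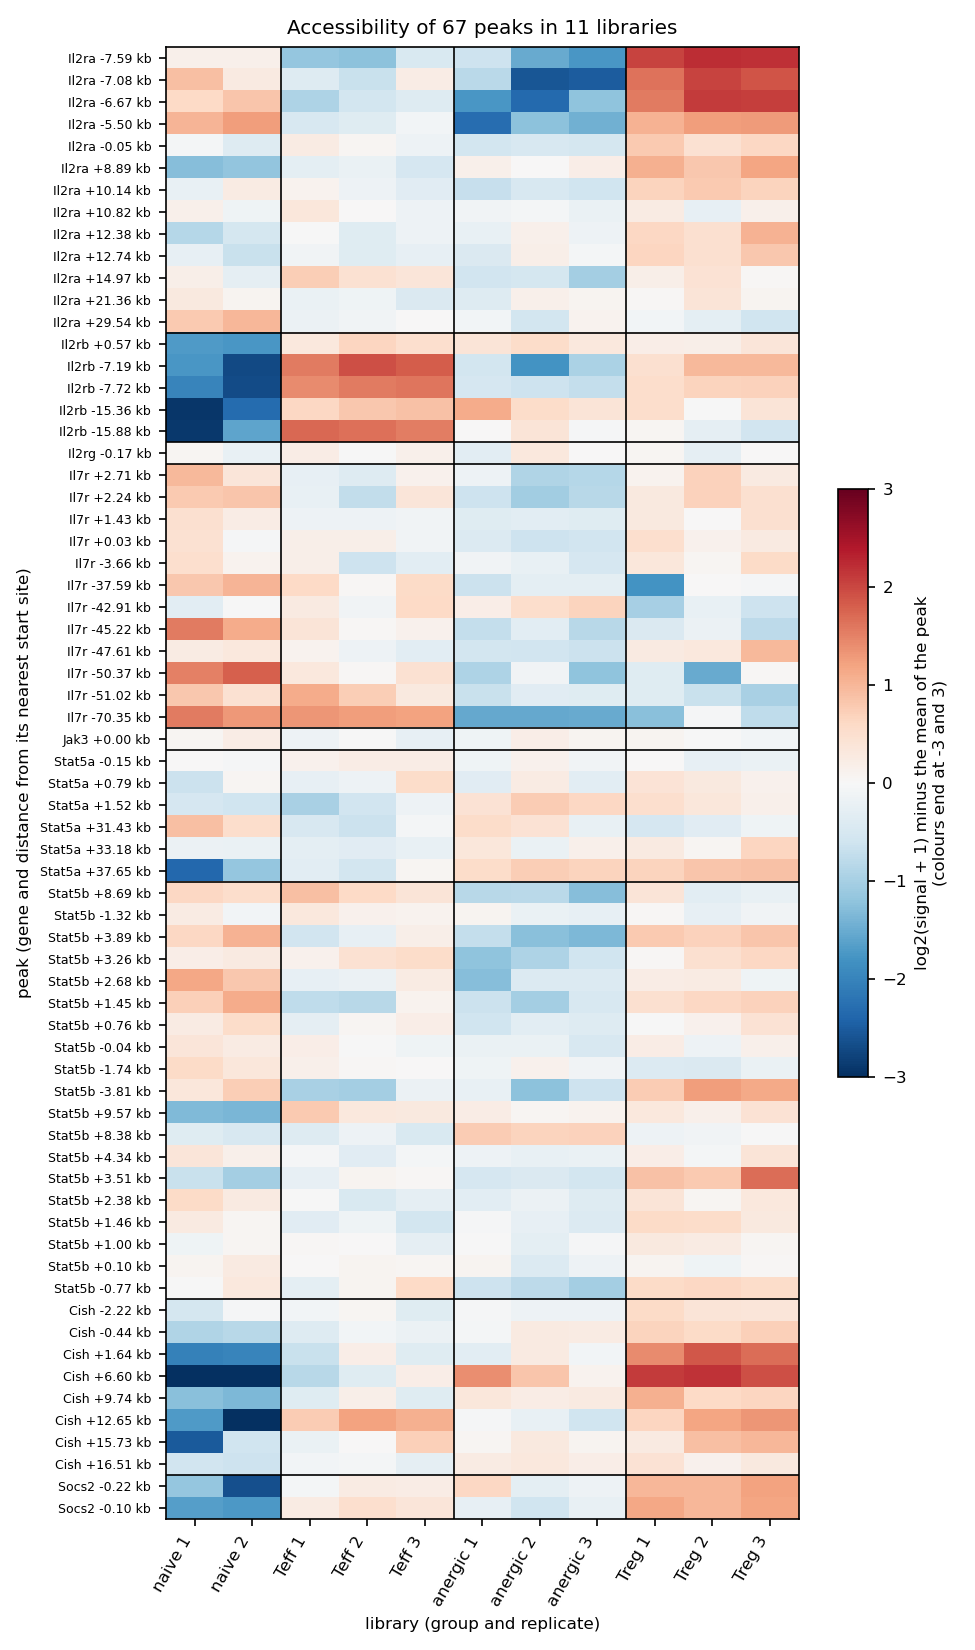
Accessibility of the 67 peaks (rows, by gene and distance in kb from the nearest start site of that gene) in the 11 libraries (columns), as log2(signal + 1) minus the mean of the peak. Most Cish and Socs2 rows are reddest in the 3 Treg libraries and bluest in the 2 naive libraries, the Il2rb rows are blue in naive libraries, and many Il7r and Stat5b rows are blue in the anergic libraries.

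Anergic cells had lower accessibility than Treg cells at 39 of the 67 peaks and higher at 4, where 14.8% of all peaks were lower and 19.4% higher (34.1% called in all). The median log2 fold change of the 67 was -0.60, beside 0.04 over all peaks. Against Teff cells, 19 of the 67 were lower and 9 higher in anergic cells, with 16.8% and 15.9% of all peaks (32.8% in all) and medians of -0.21 and -0.00. Against naive cells, 31 of the 67 were lower and 20 higher (76.1% in all), with 25.1% and 25.3% of all peaks (50.5% in all). Treg cells were higher than Teff cells at 29 peaks and lower at 10 (14.4% and 18.2% of all peaks, 32.6% in all). They were higher than naive cells at 28 and lower at 10 (22.3% and 23%, 45.3% in all). Teff cells were higher than naive cells at 19 and lower at 17 (22.7% and 17.4%, 40.1% in all). Some of these counts by direction turned on 1 library. The 9 higher in anergic than in Teff cells were 4 without Teff 1, 5 without anergic 1 and 6 without Teff 2 or anergic 3. The 4 higher in anergic than in Treg cells were 2 without anergic 2, Treg 1 or Treg 2, and 2 by edgeR. The 17 lower in Teff than in naive cells were 10 without naive 1.

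These comparisons share libraries, so their counts are not independent of each other. Scaling by total reads in peaks in place of the authors' scaling moved the median of all peaks by -0.13 for anergic against Treg, by 0.10 for Treg against Teff and by 0.17 for Treg against naive. All peaks then split into 5078 higher and 7570 lower for anergic against Treg, where the authors' scaling gave 7462 and 5680. For Treg against Teff the split went from 5535 and 6998 to 6935 and 5163, and for Treg against naive from 8568 and 8867 to 10709 and 5721. The members' splits were then 2 higher and 40 lower, 31 and 8, and 29 and 9, in the same order.

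**Figure D2:**
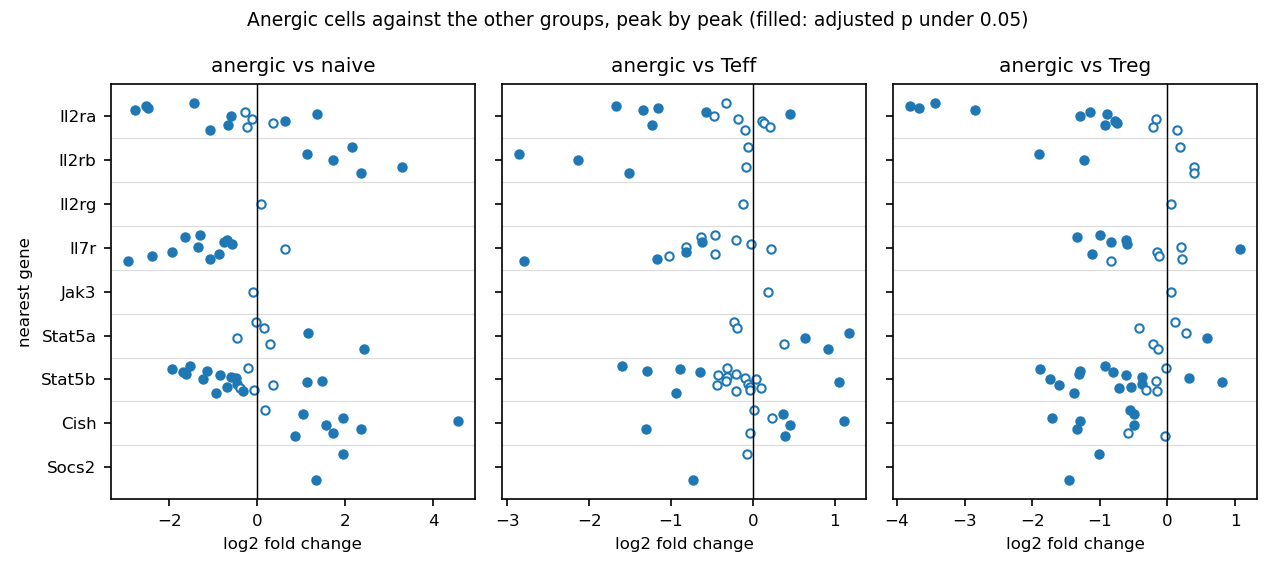
Log2 fold change (x axis) of each of the 67 peaks, by nearest gene (y axis), for anergic cells against naive, Teff and Treg cells, with 1 point a peak and filled points for adjusted p under 0.05. Against Treg cells 39 filled points lie left of 0 and 4 right of it. The Il2rb points lie right of 0 against naive cells, and 3 of 5 are filled and left of 0 against Teff cells.

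Il2ra, which encodes CD25, was most open in Treg cells at 9 of its 13 peaks and least open in anergic cells at 8. Anergic cells were lower than Treg cells at 10 peaks and higher at 0. They were lower than Teff cells at 5 and higher at 1, and lower than naive cells at 7 and higher at 2 (1 without naive 1, anergic 2 or anergic 3, in a fit of those 2 groups alone and with the replicate number as a block). Over all peaks, 34.1% were called in anergic against Treg, 32.8% against Teff and 50.5% against naive cells. The 4 upstream peaks, 5.5 to 7.59 kb before the start site, moved together: their pairwise r over the 11 libraries, which share depth and sort, was 0.78 to 0.92. Over all 78 pairs of Il2ra peaks r ran from -0.78 to 0.92, so not all peaks of the locus varied together.

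The upstream peak at 6.67 kb (chr2:11635901-11636351, intergenic) had the smallest F-test p of the distal Il2ra peaks. Its signal was 319.8, 468 and 459.6 in the Treg libraries, 165 and 194 in naive, 56.8, 74.3 and 83.3 in Teff, and 31.5, 20.6 and 46.3 in anergic libraries. No 2 groups overlapped. The means were 416 ± 83.3 in Treg, 179.6 ± 20.8 in naive, 71.5 ± 13.5 in Teff and 32.8 ± 12.9 in anergic cells (SD). Anergic cells were 12.8-fold below Treg cells (log2 fold change -3.68 ± 0.28 SE, adjusted p = 6.09e-09, limma), 5.6-fold below naive cells (-2.49 ± 0.31, 6.6e-07) and 2.23-fold below Teff cells (-1.16 ± 0.28, 0.00244). Naive cells thus stood between Treg and Teff cells here, with Teff 1.33 ± 0.31 lower than naive on the log2 scale (adjusted p = 0.00163).

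The peak at 7.08 kb upstream (chr2:11635618-11635800) held the largest fall of any member in anergic against Treg cells. Its signal was 191, 255 and 230.4 in Treg libraries and 34.8, 9.49 and 10.1 in anergic ones, 14-fold apart (-3.81 ± 0.40, adjusted p = 3.87e-07). The anergic values rest on 21, 18 and 15 reads. At 7.59 kb upstream (chr2:11635056-11635352), Treg libraries stood at 349, 402 and 391, and naive at 95.1 and 95.2. There the Teff libraries (37.4, 35.5 and 61.7) and the anergic libraries (54.7, 29.5 and 24.9) overlapped and did not differ by the test (-0.33 ± 0.30, adjusted p = 0.445, 95% interval -0.96 to 0.29). Treg cells were 8.58-fold above Teff cells at this peak (adjusted p = 9.32e-08), the largest rise of any member in that comparison.

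The upstream peak at 5.5 kb (chr2:11637159-11637424) gave overlapping values in naive and Treg libraries, at 141 and 166 against 142, 166 and 169.7 (Treg against naive 0.05, interval -0.66 to 0.76, adjusted p = 0.918). Teff libraries lay at 49.2, 53.7 and 65 and anergic ones at 13.3, 29 and 24.9, with no overlap. Anergic cells were 7.17-fold below Treg cells (-2.84 ± 0.31, adjusted p = 5.17e-07) and 2.54-fold below Teff cells (-1.34 ± 0.31, 0.00151). The fall of Teff below naive cells, -1.45 ± 0.34 (adjusted p = 0.00179), was the largest fall of any member in that comparison.

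At the start site (chr2:11642509-11642978) the range was narrower. Signal was 705, 556 and 631 in Treg, 482, 422 and 368 in Teff, 389 and 310.5 in naive, and 280.2, 290.5 and 283 in anergic libraries. Treg libraries lay above and anergic libraries below all others, and Teff and naive libraries overlapped. Anergic cells were 2.2-fold below Treg (-1.14 ± 0.15, adjusted p = 8.83e-06) and 1.48-fold below Teff cells (-0.57 ± 0.15, 0.00653), and their difference from naive cells did not pass (-0.29 ± 0.17, adjusted p = 0.176).

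The intronic peak 8.89 kb downstream (chr2:11651484-11651885) had another order. Naive libraries were lowest at 102 and 108, then Teff at 203, 216 and 175, anergic at 275, 248 and 285, and Treg at 518, 436 and 558, with no overlap between groups. Anergic cells were 2.55-fold above naive cells (1.35 ± 0.19, adjusted p = 3.39e-06) and 1.86-fold below Treg cells (-0.90 ± 0.17, 0.000359). Their rise over Teff cells, 0.45 ± 0.17 (adjusted p = 0.0486), did not pass when any library other than anergic 2 or Treg 2 was left out (adjusted p = 0.0505 to 0.157), with total-read scaling (0.0591) or in a fit of those 2 groups alone (0.0706). This peak is the only Il2ra peak that was called higher in anergic than in Teff cells. Among the other intronic peaks, the one 15 kb downstream (chr2:11657481-11658043), chosen after its values were seen, was highest in Teff cells, at 534 ± 76.4 against 228 ± 41.8 in anergic cells (-1.23 ± 0.18, adjusted p = 1.31e-05). Those 10.1, 12.4 and 12.7 kb downstream, also described after their values were seen, had their highest means in Treg cells, at 233, 269.5 and 287, against 94.3 to 172 in anergic and 132 to 154 in Teff cells, and each passed in Treg against Teff and against anergic cells. The last one, 29.5 kb downstream, was highest in naive cells (214, against 93 to 108 in the other groups). The Il2ra peaks 10.8 and 21.4 kb downstream did not differ among the 4 groups by the F test.

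**Figure D3:**
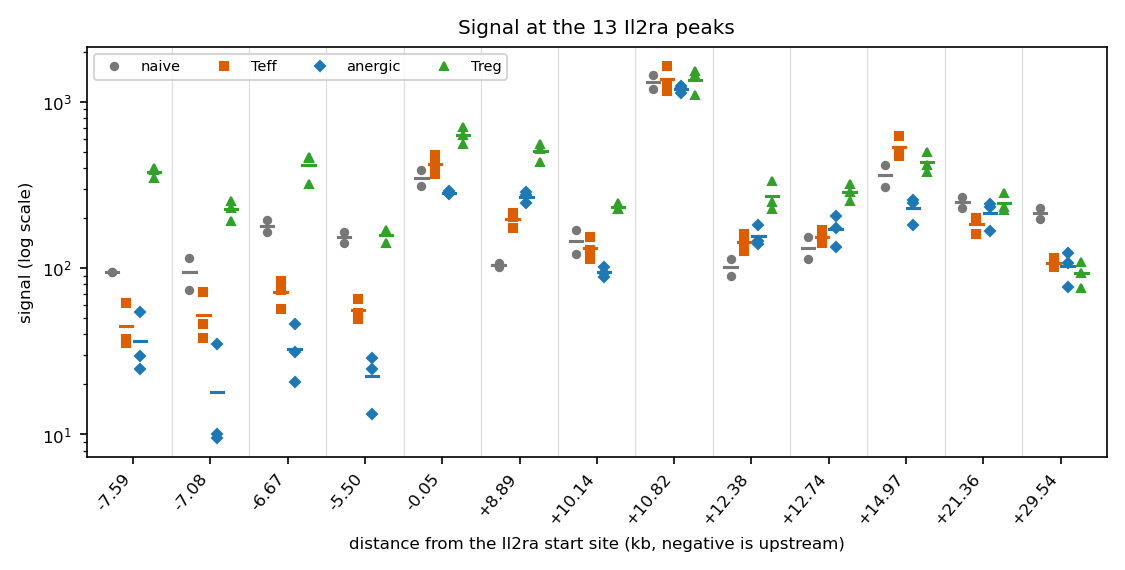
Signal (log axis) at the 13 Il2ra peaks by distance from the start site, with 1 point a library and a bar at each group mean. At the 4 upstream peaks Treg libraries lie on top, level with naive ones at 5.5 kb, with anergic or Teff libraries at the bottom, and the peak 8.89 kb downstream has naive libraries at the bottom.

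Treg libraries were not gated on CD44 in the labels, and the Cd8b1 peak given above was also higher on average in naive and Treg than in Teff and anergic cells. The part of these in the order at the upstream Il2ra peaks was not tested.

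Il2rb, the gene of the CD122 chain that IL-2 and IL-15 receptors share, was least open in naive cells and had its highest mean in Teff cells at all 5 peaks. Each of the 5 was higher than in naive cells in Teff, anergic and Treg cells alike, and 3 of 5 were lower in anergic than in Teff cells, with none higher. Against naive cells, 40.1% of all peaks were called in Teff, 50.5% in anergic and 45.3% in Treg cells. In anergic against Teff cells it was 32.8%. The Il2rb start-site peak (chr15:78493130-78495860, centred in an intron) read 1649 and 1607 in naive libraries. It read 6733, 8374 and 7612 in Teff, 7058, 7946 and 6729 in anergic, and 6169, 6135 and 6917 in Treg libraries. The 3 antigen-experienced or regulatory groups overlapped each other and none overlapped naive cells. Anergic cells were 4.44-fold above naive cells (2.15 ± 0.11, adjusted p = 3.18e-13), and their difference from Teff cells was -0.06 (interval -0.26 to 0.14, adjusted p = 0.676).

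Of the 4 upstream Il2rb peaks, 3 separated Teff from anergic cells. At 7.72 kb upstream (chr15:78502521-78503046, intergenic), signal was 359, 395 and 408 in Teff, 194, 215 and 218 in Treg, 94.5, 87.5 and 81.9 in anergic, and 33.3 and 20.1 in naive libraries. The 4 groups did not overlap. Anergic cells were 4.36-fold below Teff cells (-2.13 ± 0.22, adjusted p = 1.72e-07), 2.36-fold below Treg cells (-1.24 ± 0.22, 0.000173) and 3.3-fold above naive cells (1.72 ± 0.25, 3.77e-06).

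The neighbouring peak at 7.19 kb (chr15:78502124-78502387) held both the largest fall of any member in anergic against Teff cells and the largest rise in Teff against naive cells. Its signal was 152, 199.9 and 182 in Teff, 72.1, 102 and 101 in Treg, 34.8, 14.2 and 26.2 in anergic, and 14.6 and 6.97 in naive libraries, the last 2 from 18 and 9 reads. Anergic cells were 7.24-fold below Teff cells (-2.86 ± 0.37, adjusted p = 3.6e-06), and Teff cells 15.9-fold above naive cells (3.99 ± 0.42, 1e-07). Anergic and naive libraries overlapped. The anergic rise over naive cells there, 1.14 ± 0.42 (adjusted p = 0.0268), did not pass without naive 2 (0.65, adjusted p = 0.295), anergic 1 (0.87, 0.103) or anergic 3 (1.07, 0.0633), nor in a fit of those 2 groups alone (0.167).

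Of the other upstream Il2rb peaks, both described after their values were seen, the one 15.9 kb away (chr15:78510789-78511101) fell like those nearer the gene, from 324 ± 22.6 in Teff to 114 ± 18.5 in anergic cells (-1.51 ± 0.29, adjusted p = 0.000295). The one 15.4 kb away (chr15:78510223-78510622) stood at 284 ± 24.6 in Teff and 274 ± 78.1 in anergic cells, a difference of -0.08 (interval -0.56 to 0.40, adjusted p = 0.83).

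CD122 is also a protein of NK and innate-like T cells, so their markers were measured. Of Klrb1c, Zbtb16, Eomes and Ncr1, Ncr1 had no peak. The other 3 had 26 peaks, of which 17 were lower and 1 higher in anergic than in Teff cells, 16 were higher and 2 lower in Teff than in naive cells, and 18 were lower and 1 higher in Treg than in Teff cells (69.2%, 69.2% and 73.1% called, beside 32.8%, 40.1% and 32.6% of all peaks). Their summed signal was 24969.9 to 28787 in Teff, 20753 to 26318 in anergic, 22770.4 to 23294 in naive and 18738 to 24202 in Treg libraries. Zbtb16 held 13 of the 26 peaks, Klrb1c 11 and Eomes 2. At the Zbtb16 peak with the smallest F-test p, means were 727 in Teff, 121 in anergic, 33.4 in Treg and 15.1 in naive cells. The Klrb1c peak chosen likewise averaged 968 in Teff, 349 in anergic, 307 in Treg and 211 in naive cells. That of Eomes went the other way, at 318 in naive, 282 in Treg, 159 in anergic and 138 in Teff cells. The part of such cells in the Il2rb differences was not tested.

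Il2rg, the gene of the common gamma chain, had 1 peak, at its start site (chrX:101267912-101268938). Signal was 1007 and 832 in naive, 1129.8, 974 and 1090.1 in Teff, 778, 1211 and 983 in anergic, and 1023, 813 and 975 in Treg libraries. All groups overlapped, and the F test did not pass (adjusted p = 0.563). The largest of the 6 differences, Teff against naive, was 0.21 on the log2 scale (95% interval -0.13 to 0.56, adjusted p = 0.315).

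Il7r, the CD127 gene, was least open in anergic cells at 10 of its 12 peaks, and all 12 differed among groups. Anergic cells were lower than naive cells at 11 peaks (7 without naive 1) and higher at 0, lower than Treg cells at 6 and higher at 1, and lower than Teff cells at 4 and higher at 0. Treg cells were lower than Teff cells at 5 and higher at 2. The 5 were 2 without Teff 1 and 3 without Teff 3 or Treg 1 or with total-read scaling, and the 2 were 1 without Teff 1 and 0 without Teff 2, Treg 1 or Treg 3. Naive cells had the highest mean at 7 of the 12 peaks, and at 36.6% of all peaks. Of all peaks, 50.5% were called in anergic against naive, 34.1% against Treg and 32.8% against Teff cells, and 32.6% in Treg against Teff cells. The 4 of 12 Il7r peaks called in anergic against Teff cells lay near the share of all peaks.

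The peak 45.2 kb upstream (chr15:9574769-9575421, intergenic), whose centre is shown above with 2 RUNX patterns, read 1155 and 837 in naive libraries. Teff libraries stood at 512, 399 and 427, anergic at 237, 314 and 218, and Treg at 287, 345 and 224. Naive and Teff libraries each stood apart, while anergic and Treg libraries overlapped. Anergic cells were 3.88-fold below naive cells (-1.95 ± 0.21, adjusted p = 6.16e-08) and 1.75-fold below Teff cells (-0.81 ± 0.19, 0.0017), and differed from Treg cells by -0.15 (interval -0.54 to 0.24, adjusted p = 0.563). Treg cells were lower than Teff cells (-0.66 ± 0.19, adjusted p = 0.00964), which did not pass without Teff 1 (-0.55, 0.0556) or Treg 3 (-0.49, 0.0704).

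Further upstream, in an intron of Spef2, the peak at 51 kb (chr15:9580516-9581270) split the groups another way. Naive libraries read 629.7 and 491 and Teff 782, 605 and 438, so these overlapped, while anergic libraries read 227, 284 and 278 and Treg 279, 226 and 182. Anergic cells were 2.26-fold below Teff cells (-1.17 ± 0.20, adjusted p = 8.09e-05) and 2.12-fold below naive cells (-1.08 ± 0.22, 0.000311). The difference of Teff from naive cells was 0.09 (interval -0.37 to 0.55, adjusted p = 0.779).

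The same split, with a wider gap, was seen at 70.3 kb (chr15:9600149-9600304), also in a Spef2 intron. Signal was 91.8 and 77.4 in naive, 78.2, 75.2 and 71.7 in Teff, 12.4, 29.8 and 17.7 in Treg, and 9.95, 10 and 10.1 in anergic libraries. The anergic values rest on 6, 19 and 15 reads, so they are less precise than their closeness shows. Anergic cells were 7.75-fold below naive cells (-2.95 ± 0.47, adjusted p = 1.78e-05), the largest fall of any member in that comparison, and 6.9-fold below Teff cells (-2.79 ± 0.42, 2.29e-05). Treg cells fell below Teff cells there by 1.94 ± 0.42 on the log2 scale (adjusted p = 0.00126).

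At 50.4 kb (chr15:9580155-9580328) naive libraries stood at 93.4 and 114 and the 9 others between 10.6 and 45. Treg cells were 4.8-fold below naive cells (-2.26 ± 0.52, adjusted p = 0.00112), the largest fall of that comparison, and the fall of anergic below Teff cells did not pass (-1.02 ± 0.46, adjusted p = 0.0987; 0.0495 without anergic 2). The exception among Il7r peaks was at 42.9 kb (chr15:9572646-9572937). Anergic libraries read 99.5, 125 and 139 there and Treg 42.8, 74.5 and 55.7, 2.11-fold apart (1.08 ± 0.28, adjusted p = 0.00511). This was the largest rise of any member in anergic against Treg cells. Its anergic values overlapped those of Teff libraries (104, 80.1 and 132).

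Near the gene, Treg and naive libraries ran together and above the anergic ones. At the start site (chr15:9529677-9530014, 5′ UTR exon), signal was 395 and 284 in naive, 413, 317 and 347 in Treg, 328, 329 and 268 in Teff, and 216, 189 and 194 in anergic libraries. Only the anergic libraries stood apart, 1.79-fold below Treg (-0.84 ± 0.17, adjusted p = 0.000849), 1.54-fold below Teff (-0.62 ± 0.17, 0.00793) and 1.68-fold below naive cells (-0.75 ± 0.20, 0.00279). The fall against naive cells did not pass without naive 1 (-0.51, adjusted p = 0.103). In the intron 1.43 kb downstream (chr15:9527981-9528922), naive libraries stood at 1117 and 936, Treg at 989, 813 and 1118, Teff at 719, 718 and 743, and anergic at 627, 649 and 623. Anergic cells were below Treg (-0.61 ± 0.13, adjusted p = 0.00109) and naive cells (-0.69 ± 0.15, 0.000385), and their fall below Teff cells did not pass (-0.20 ± 0.13, adjusted p = 0.27).

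**Figure D4:**
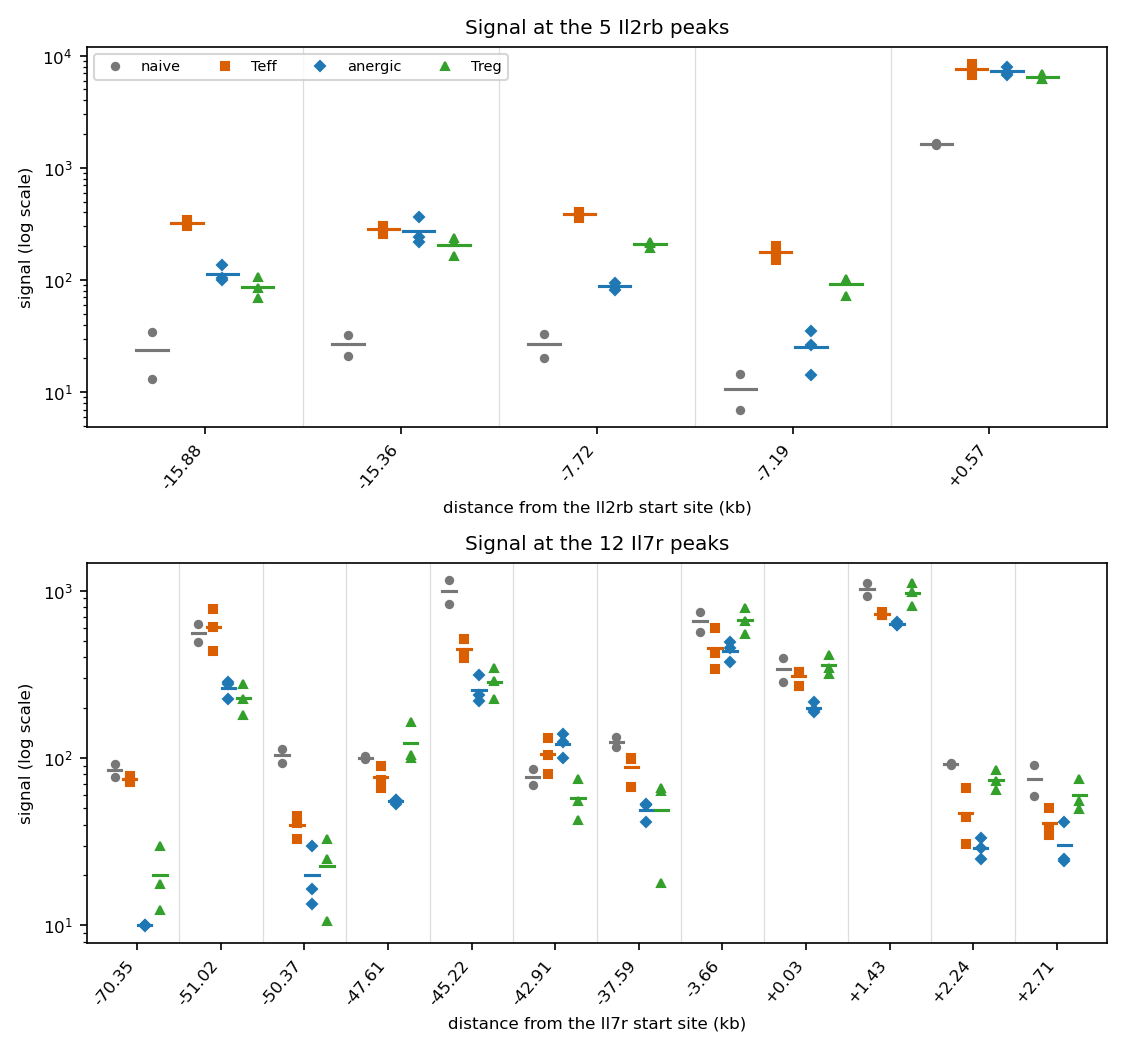
Signal (log axis) at the 5 Il2rb peaks (top) and the 12 Il7r peaks (bottom) by distance from each gene's start site, with 1 point a library and a bar at each group mean. Naive libraries are lowest by mean at each Il2rb peak, and anergic libraries are lowest by mean at 10 of 12 Il7r peaks.

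Jak3, the gene of the kinase bound to the gamma chain, had 1 peak, centred on its start site (chr8:71675965-71676801). Signal was 1536 and 1712 in naive, 1321, 1460.2 and 1228 in Teff, 1339.6, 1677 and 1542 in anergic, and 1549.6, 1443 and 1378 in Treg libraries. The F test did not pass (adjusted p = 0.218). The largest difference was of Teff from naive cells, -0.28 (interval -0.55 to -0.02, adjusted p = 0.083).

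Stat5a and Stat5b lie next to each other on chromosome 11. Of 6 Stat5a peaks, 3 were higher (1 without Teff 2) and 0 lower in anergic than in Teff cells. Of 19 Stat5b peaks, 1 was higher and 5 lower than in Teff cells, 2 higher and 13 lower than in naive cells, and 2 higher and 13 lower than in Treg cells. The 2 higher than in Treg cells were 1 without anergic 2, Treg 1 or Treg 2, by edgeR, with total-read scaling and in a fit of those 2 groups alone. Of all peaks, 32.8% were called in anergic against Teff, 50.5% against naive and 34.1% against Treg cells. The 6 of 19 Stat5b peaks called in anergic against Teff cells lay near the share of all peaks.

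The Stat5a start-site peak (chr11:100859638-100861034) varied little, at 3941 and 3799 in naive, 4255, 4570.5 and 4520.3 in Teff, 3561, 4237 and 3609 in anergic, and 3946, 3259 and 3381 in Treg libraries. Treg cells were 1.26-fold below Teff cells (-0.34 ± 0.10, adjusted p = 0.00999), and the fall of anergic below Teff cells did not pass (-0.23 ± 0.10, adjusted p = 0.0742), though it did with total-read scaling (0.0217) and without anergic 2 (0.0236). In the intron 1.52 kb downstream (chr11:100861770-100862244), anergic libraries stood at 429, 532 and 488 and Treg at 445, 398 and 352, above Teff at 161, 211 and 282 and naive at 222 and 208. Anergic cells were 2.26-fold above Teff cells (1.18 ± 0.19, adjusted p = 3.43e-05), the largest rise of any member in that comparison, and 2.23-fold above naive cells (1.16 ± 0.21, 6.59e-05).

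A like order held in a Stat3 intron 37.6 kb downstream of Stat5a (chr11:100897996-100898269). Signal was 23.6 and 55.7 in naive, 101, 85.9 and 130 in Teff, 186, 210.3 and 200.2 in anergic, and 202, 224 and 230.4 in Treg libraries. Anergic and Treg libraries overlapped each other and stood above the rest. Anergic cells were 5.34-fold above naive cells (2.42 ± 0.30, adjusted p = 4.69e-07) and 1.9-fold above Teff cells (0.92 ± 0.26, 0.00915). The rise over Teff cells did not pass without Teff 2 (0.79, adjusted p = 0.0552).

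The Stat5b peaks were assigned to 3 annotated start sites, each peak to the nearest. The intronic peak 3.89 kb downstream of the middle one (chr11:100818385-100818972) read 605 and 816 in naive, 677, 636 and 703 in Treg, 262, 331 and 442 in Teff, and 239, 163 and 154 in anergic libraries. Naive and Treg libraries overlapped and stood above Teff libraries, which stood above the anergic ones. Anergic cells were 3.86-fold below naive (-1.95 ± 0.22, adjusted p = 1.22e-07), 3.68-fold below Treg (-1.88 ± 0.19, 3.02e-07) and 1.85-fold below Teff cells (-0.89 ± 0.19, 0.00104). The Cd8b1 signal given above was likewise higher on average in naive and Treg than in Teff and anergic cells, and its part in the Stat5b order was not tested.

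The Stat5b peak closest to a start site (chr11:100822290-100822938) was lower in anergic libraries, at 749, 754 and 615, than in naive libraries at 1116 and 1025 (-0.60 ± 0.15, adjusted p = 0.00182). Teff libraries read 986, 855 and 790 and Treg 1005, 779 and 956. The fall below Treg cells, -0.37 ± 0.13 (adjusted p = 0.0383), did not pass without Teff 2, anergic 3, Treg 1 or Treg 3 (0.0508 to 0.179), nor in a fit of those 2 groups alone (0.0517). The promoter peak of the most upstream start site (chr11:100849825-100851135), described after its values were seen, did not differ among groups by the F test (adjusted p = 0.117).

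Neighbouring Stat5b peaks differed in their order of groups: r over the 171 pairs of its peaks ran from -0.92 to 0.93 and was below 0 in 46. The peak 8.38 kb downstream of the most upstream start site (chr11:100841863-100842547), chosen after its values were seen, was highest in anergic libraries, at 824, 772 and 789.9. Treg libraries there read 434, 451 and 479, Teff 368, 434 and 353, and naive 379 and 349. Anergic cells were 2.07-fold above Teff (1.05 ± 0.14, adjusted p = 3.4e-06), 2.18-fold above naive (1.13 ± 0.15, 1.89e-06) and 1.75-fold above Treg cells (0.81 ± 0.14, 0.000105). It was the only one of the 67 peaks called higher in anergic cells than in each other group. The peak 8.69 kb downstream of the most downstream start site (chr11:100804410-100804943), also chosen after its values were seen, fell from 704 ± 124 in Teff to 231 ± 39.3 in anergic cells (-1.60 ± 0.19, adjusted p = 7.93e-07).

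Cish, the gene of the feedback inhibitor CIS, had its highest mean in Treg and its lowest in naive cells at all 8 peaks, and no pair of its peaks had an r below 0 (0.41 to 0.97 over 28 pairs). All 8 were higher in Treg than in naive cells and 7 were higher in anergic than in naive cells. Anergic cells were higher than Teff cells at 4 (1 without Teff 1, 2 without anergic 1 or anergic 3) and lower at 1 (0 without Teff 2 or anergic 3), and lower than Treg cells at 6 and higher at 0. Beside these, 45.3% of all peaks were called in Treg against naive cells. In anergic cells the shares of all peaks were 50.5% against naive, 32.8% against Teff and 34.1% against Treg cells. The peak over the start site (chr9:107295375-107297065), which holds 5 STAT5 patterns, 4 of them shown above, read 1540.4 and 1617 in naive libraries. Teff libraries read 2204, 2721 and 2555, anergic 2764, 3487 and 3448, and Treg 4578, 4345 and 4754. The 4 groups followed each other without overlap.

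Treg cells were 2.89-fold above naive cells at that peak (1.53 ± 0.12, adjusted p = 9.99e-10). Anergic cells were 2.04-fold above naive cells (1.03 ± 0.12, 2.17e-07) and 1.42-fold below Treg cells (-0.50 ± 0.11, 0.000998). Their rise of 1.29-fold over Teff cells (0.37 ± 0.11, adjusted p = 0.00914) did not pass without Teff 1 (0.29, 0.0742) or anergic 3 (0.32, 0.0522).

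The Cish peak 6.6 kb downstream (chr9:107303125-107303402, intergenic) was nearly closed in naive cells. Naive libraries read 6.5 and 3.1, from 8 and 4 reads. Teff libraries stood at 42.2, 58.6 and 86.7, anergic at 201, 135 and 81.9, and Treg at 324, 345 and 292. Treg cells were 57.9-fold above naive cells (5.85 ± 0.38, adjusted p = 7.16e-11) and anergic cells 23.7-fold (4.57 ± 0.38, 1.56e-09), the largest rises of any member in those comparisons, on a scale of log2(signal + 1) that understates folds of low values. Anergic and Teff libraries overlapped. The rise of anergic over Teff cells, 1.11 ± 0.34 (adjusted p = 0.0153), did not pass without Teff 1 (0.86, 0.0878) or anergic 1 (0.80, 0.109), and the fall below Treg cells, -1.29 ± 0.34 (0.00618), did not pass without anergic 3 (-0.95, 0.056).

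The single Cish peak lower in anergic than in Teff cells lay 12.7 kb downstream (chr9:107309231-107309392) and was singled out after its values were seen. Means were 139 ± 21.8 in Teff, 145 ± 34.4 in Treg, 56.2 ± 11.1 in anergic and 12.5 ± 11.1 in naive cells (anergic against Teff -1.30 ± 0.38, adjusted p = 0.0104, a call lost under 2 of 18 alternatives). An intronic Cish peak 1.64 kb downstream (chr9:107298160-107298442), described on the same terms, set Treg cells apart. It read 375, 515 and 449 in Treg libraries, between 87.2 and 169 in Teff and anergic libraries, and 33.3 and 34.8 in naive libraries (Treg against anergic cells 3.24-fold, adjusted p = 1.56e-05).

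Socs2, the gene of another feedback inhibitor, had 2 peaks, both highest in Treg and lowest in naive cells. The one closest to a start site (chr10:95416499-95417412) read 1239.9, 1109 and 1269.9 in Treg, 665, 794 and 717 in Teff, 474, 368 and 475 in anergic, and 176 and 169 in naive libraries. No groups overlapped. Treg cells were 6.95-fold above naive cells (2.80 ± 0.16, adjusted p = 6.35e-12). Anergic cells were 2.52-fold above naive (1.33 ± 0.16, 2.65e-07), 1.66-fold below Teff (-0.73 ± 0.14, 0.000297) and 2.76-fold below Treg cells (-1.46 ± 0.14, 1.11e-07). Anergic cells thus lay above Teff cells at the Cish start site and below them at this Socs2 peak. The Cish rise did not pass without Teff 1 or anergic 3. The other Socs2 peak, 0.22 kb upstream of another start site, averaged 95.4 in anergic and 96.5 in Teff cells (-0.07, limma adjusted p = 0.905).

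**Figure D5:**
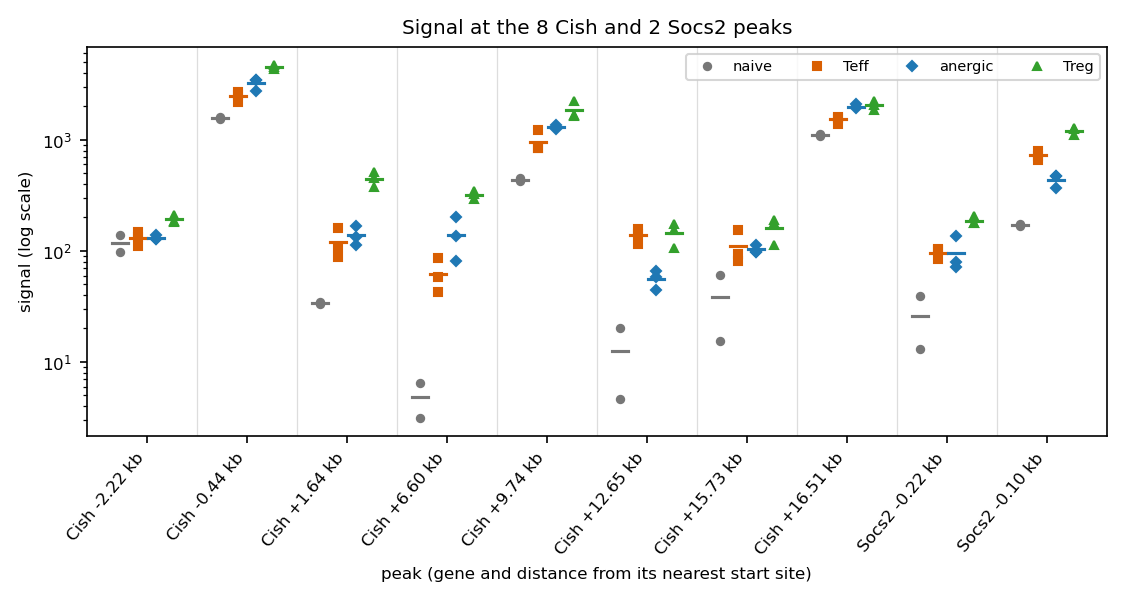
Signal (log axis) at the 8 Cish and 2 Socs2 peaks by distance from the nearest start site, with 1 point a library and a bar at each group mean. Treg libraries have the highest and naive libraries the lowest mean at each peak, and the gap is widest 6.6 kb downstream of Cish.

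The STAT5 pattern TTCNNNGAA stood in the central 300 bases of 9 of the 67 peaks (13.4%) and of 7.7% of all 38441 peaks on chromosomes. Over whole peaks it was 14 of 67 (20.9%) against 12.2%. The AP-1 pattern TGANTCA stood in 14.9% of the members against 11.8% of all peaks, the RUNX pattern TGTGGT in 26.9% against 26.3%, and the ETS pattern CCGGAA in 3 members (4.48%) against 13.1%. Both strands were searched. A STAT5 pattern with CCG or CGG at its centre also holds the ETS pattern, as the last one shown for Cish does. A match describes the letters and is no evidence of binding.

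Other genes of common gamma chain and related cytokine signalling were read by the same test. Of 14 such cytokines, receptors and kinases, 12 had peaks (84), and 34 of these were lower and 12 higher in anergic than in Teff cells. Against Treg cells 35 were lower and 19 higher, and against naive cells 39 and 20. The shares called were 54.8%, 64.3% and 70.2%, beside 32.8%, 34.1% and 50.5% of all peaks. Their median log2 fold changes were -0.42, -0.25 and -0.37 in these comparisons, beside -0.00, 0.04 and -0.04 over all peaks. Treg cells were lower than Teff cells at 20 and higher at 11 of the 84 (36.9% called, near the 32.6% of all peaks). An Il4ra peak 9.11 kb from its start site, in the IL-4 receptor gene, averaged 257 ± 39.8 in anergic, 360.4 ± 14.4 in Teff, 909.8 ± 61.6 in Treg and 1275 ± 69.2 in naive cells. A peak 27.1 kb from Il21, a cytokine gene, went the other way, at 597 ± 44.5 in anergic, 143 ± 23.3 in Teff, 92.4 ± 15.3 in Treg and 36.8 ± 6.04 in naive cells (anergic against Teff 2.06, adjusted p = 1.84e-07). A peak 5.26 kb from Tyk2, a JAK-family kinase gene, averaged 1656 ± 176 in anergic, 1686 ± 77.6 in Teff, 1536 ± 144 in Treg and 555 ± 5.21 in naive cells. At Il4, a cytokine gene, a peak 7.41 kb away averaged 408 ± 101 in Teff, 216 ± 40.2 in anergic, 48.6 ± 18.8 in Treg and 13.1 ± 3.25 in naive cells.

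Of 24 further STAT5 targets and regulators of STAT5 signalling, 23 had peaks (151). Of these, 26 were lower and 27 higher in anergic than in Teff cells, 45 and 20 against Treg cells, and 48 and 40 against naive cells, with medians of -0.11, -0.16 and -0.16. The shares called were 35.1%, 43% and 58.3%, beside 32.8%, 34.1% and 50.5% of all peaks. A peak 11.6 kb from Socs5, a member of the same inhibitor family as Cish, averaged 885 ± 152 in anergic, 1118 ± 63.6 in Treg, 395 ± 28.4 in Teff and 39 ± 5.81 in naive cells. A peak 7.86 kb from Pim1, a STAT5-induced kinase gene, averaged 67.8 ± 17.8 in anergic cells against 267 ± 14.4 in Teff cells (-1.99, adjusted p = 1.59e-07). At Ptpn11, the gene of the phosphatase SHP2, a peak 11.8 kb away averaged 1012 ± 55.5 in anergic against 272 ± 55.8 in Teff cells (1.91, adjusted p = 7.46e-06). A peak 65.2 kb from Ccnd2, a cyclin gene, averaged 175 ± 35.8 in anergic, 138 ± 24.4 in Treg, 40.9 ± 12.3 in Teff and 11.5 ± 0.953 in naive cells.

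Outside the 9 genes, the peaks whose log2 signal over the 11 libraries was most like that of the Il2ra peak 6.67 kb upstream lay nearest to Ntn5 (Pearson r 0.987), Fbxl22 (0.972), Bach2 (0.966), Ripor2 (0.964) and Oxsm (0.963). The Bach2 peak, near the gene of a transcription repressor of T cells, averaged 599 in Treg, 511 in naive, 143 in Teff and 70.4 in anergic cells. The peaks most like the Il7r peak 45.2 kb upstream lay nearest to LOC102637792 (0.990), Gm41230 (0.984), Pid1 (0.982), Snrpd3 (0.980) and E2f2 (0.979). Each gene was ranked by its most alike peak, all named are among the first 5, and r is given as a description only.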

How the data were processed

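ATAC-seq signal in 11 libraries of 4 groups was analysed. Trimming was with Trimmomatic 0.38.1, alignment to mm10 with Bowtie2 2.3.3.1 and sorting with SAMtools 1.13, per the series' design text. Peaks were called per sample with Genrich 0.5, with removal of duplicates and transposase adjustment, and merged with DiffBind 2.10.0. The deposited signal is reads per peak times a factor of each library made by the authors, by a method not given in the sources used here. Values divided by the smallest of their column were whole within 0.01 for 100.0% of values, so that value was read as 1 read. Starts were used as given in the file.

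Peaks were assigned to the nearest of 45756 RefSeq transcripts (GRCm38), which left out 68 on contigs. The filter of edgeR 4.0.16 removed 16 peaks. The limma-trend test (limma 3.58.1, R 4.3.3) used log2(signal + 1), fitted to the 11 libraries together by group, with Benjamini-Hochberg adjustment over 38493 peaks and a threshold of 0.05. Errors of fold changes are limma's standard errors and errors of means are SD. The fit was tested on simulated data. Alternatives were edgeR and DESeq2 1.42.0 on recovered reads, total-read scaling, a pseudocount of 5, no filter, 2-group fits, a replicate block and each library left out.

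The members, lists and tests were chosen with earlier results of these data known. Named for each gene were the peak closest to a start site, the distal peak with the smallest F-test p (4 for Il2ra and Il7r), and for each comparison the largest rise and fall without overlap. Likeness was ranked by Pearson r of log2(signal + 1).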

Additional observations from a re-analysis of the deposited data

How the results depend on the processing

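The total of called members in each comparison stayed within 1.5 times of its value under every alternative run. Counts by direction moved further, from 9 to 4 higher (anergic against Teff, without Teff 1), from 4 to 2 higher (anergic against Treg, without anergic 2, Treg 1 or Treg 2, by edgeR and with total-read scaling) and from 17 to 10 lower (Teff against naive, without naive 1). No value of the 26 named peaks changed sign where it was called. With single libraries left out, the totals ranged from 24 to 30 (anergic against Teff), 42 to 51 (anergic against naive), 36 to 43 (anergic against Treg), 32 to 40 (Treg against Teff), 33 to 38 (Treg against naive) and 27 to 37 (Teff against naive). Of 2808 alternative values of the named peaks, 2745 kept their direction and side of the threshold, 48 lost a call, 42 of them with a library left out, and 15 gained one. In whole peaks, the count of members with the STAT5 pattern moved from 9 to 14, with 6 gained and 1 lost. With the replicate number as a block, the totals were 29, 49, 43, 39, 38 and 36 in the order above. Same-numbered libraries had a median r of 0.0217 in their deviations from group means (-0.114 to 0.155, over 0.1 in 4 of 15 pairs). Libraries of other numbers had a median r of -0.0194 (-0.22 to 0.186, over 0.1 in 4 of 30 pairs). Of 11 libraries, 7 correlated best with their own number. These overlapping ranges do not settle whether the numbers pair the samples, which the labels do not state. The main fit therefore used group alone. Naive cells had 2 libraries, so leaving 1 out leaves a lone sample that is assumed to vary like the other groups. Low peaks rest on few reads, as given beside them.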
